A study of Mus musculus with 6 samples.

Results

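The subject here is the contrast between 1 mouse endothelial line labelled as expressing VE-cadherin alone, with 2 arrays, and the other two lines of the series, which are labelled as expressing N-cadherin alone or N-cadherin together with VE-cadherin, with 4 arrays between them, out of 6 arrays in all. The arrays were chosen by the line named in their titles (VE against N and VE+N), and the difference was taken as the VE-labelled line minus the mean of the other two line means, written below as VE minus both. Attention is on genes for which both lines carrying N-cadherin departed from the VE-labelled line in the same direction and lay close to each other. All 3 lines are endothelial cells derived from embryonic stem cells, and how each cadherin was introduced or removed is not given in the sources used here. Every line was seeded at 50000 cells per square centimetre and cultured for 72 h, well past confluence, before 18 to 20 h of starvation with 1% albumin. Serum (FCS) at 20% and the endothelial growth supplement ECGS at 5 µg/ml are also recorded, alike for every array. Total RNA (150 ng per array) was hybridised to Affymetrix Mouse Gene 1.0 ST arrays, which carry probes along the whole transcript. Each line contributed 2 RNA extractions, labelled as biological replicates, and no source says whether they were grown apart, so the tests below rest on the spread between extracts, which may be technical. Since 1 line stood for each cadherin state, a difference belonging to N-cadherin cannot be told apart from any other property of the VE-labelled line.

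N-cadherin (gene Cdh2) and VE-cadherin (gene Cdh5) are classical cadherins, transmembrane proteins that bind their like on the neighbouring cell in the presence of calcium and hold beta-catenin, plakoglobin, p120 and, through them, alpha-catenin and actin at their cytoplasmic tails. VE-cadherin is the main cadherin of endothelial junctions and is known for its part in contact inhibition of growth and in the control of permeability. N-cadherin is the cadherin of neural and mesenchymal cells. Endothelial cells also make it, and there it is known for contacts with pericytes and smooth muscle cells and for association with fibroblast growth factor receptors.

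The cadherin genes were read first, as a check of the labels. Cdh2 was lowest in the VE-labelled line, as its label would have it: log2 signals were 5.80 and 5.93 on the VE-labelled, 7.66 and 7.67 on the N-labelled and 6.69 and 6.70 on the VE+N-labelled arrays. The VE-labelled arrays lay below all 4 others, and the lines carrying N-cadherin did not overlap with each other either. VE minus both was −1.32 ± 0.0859 (SE) log2 units (limma, adjusted p = 7.84e-05). The adjusted p was 0.165 when the 4 other arrays were treated as 1 group. The mean of the VE+N arrays was itself 0.97 lower than the N-labelled line (adjusted p = 0.000315). Cdh2 thus did not have the pattern sought, in which both lines depart equally. Cdh5 read 7.05 and 6.83 on the VE-labelled, 7.26 and 7.30 on the N-labelled and 7.05 and 7.16 on the VE+N-labelled arrays, so that the VE-labelled line, which should express it, held the lowest signal and the N-labelled line, which should not, the highest. The Cdh5 difference of −0.25 ± 0.0977 did not pass (adjusted p = 0.186). The VE-cadherin part of the labels is therefore not borne out by this single probe set, whose probe positions are not known here, and every direction below rests on the labels. Of 18 genes of the cadherin-catenin complex 1 fell (Cdh2) and 1 rose, where 3.68% of all genes fell and 5.86% rose. The 1 rise, 5.56% of the list, was thus near the share over all genes. It was that of the p120-family gene Pkp4, at 0.41 ± 0.0832 (adjusted p = 0.0188). The Pkp4 call was lost when either array of the N-labelled or of the VE-labelled line was left out, with values between 0.39 and 0.43. Named as the core of the complex, beta-catenin (Ctnnb1) at −0.24 ± 0.0835, plakoglobin (Jup) at 0.09 ± 0.0997, p120 (Ctnnd1) at −0.05 ± 0.109 and alpha-catenin (Ctnna1) at 0.00 ± 0.0964 did not pass.

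**Figure D1:**
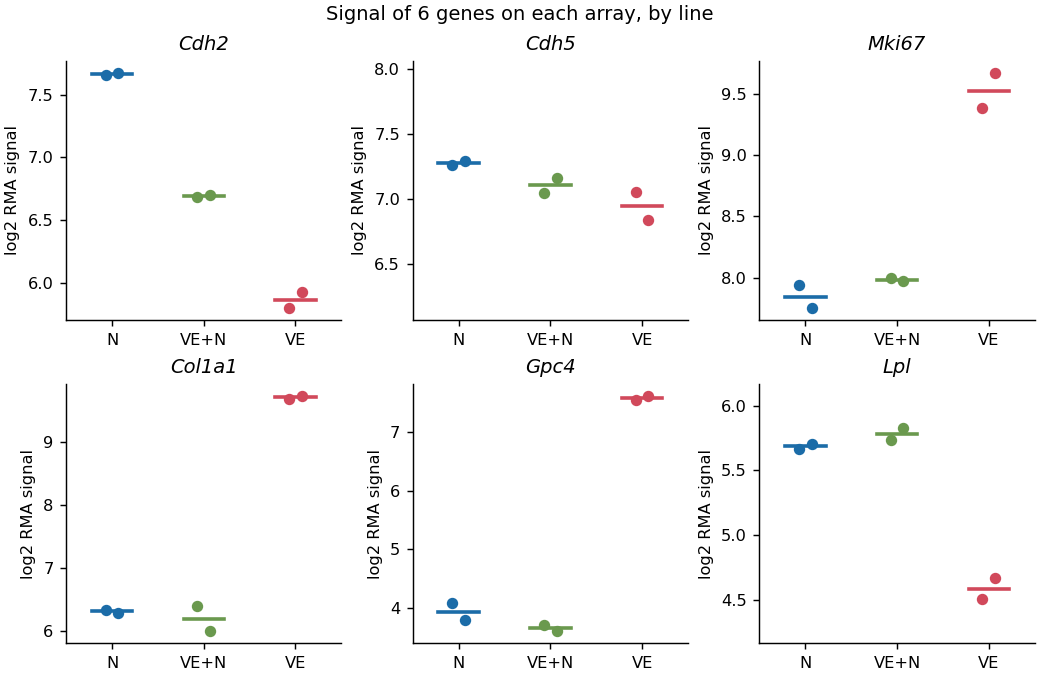
Log2 RMA signal (vertical axis) of 6 genes on each of the 6 arrays, grouped by line (horizontal axis); points are arrays and bars the mean of the 2 arrays of a line. Cdh2 falls in steps from N through VE+N to VE, and Cdh5 spans 6.83 to 7.30. Mki67, Col1a1 and Gpc4 are highest on the VE-labelled arrays among these 6, and Lpl is lowest there.

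In the contrast as a whole, differences over 2-fold ran mostly upwards in the VE-labelled line. Of 19936 genes tested, 1903 passed adjusted p 0.05 in limma (9.55%), 1169 upwards (5.86%) and 734 downwards (3.68%). Over 2-fold were 420 (2.11%), of which 345 were higher (1.73%) and 75 lower (0.376%). The single departures called 15.4% of genes in VE minus N (8.46% higher, 6.99% lower) and 10.1% in VE minus VE+N (5.84% and 4.29%). VE+N minus N called 19.1% (10.2% and 8.91%). The balance over all called genes moved with the processing: 61.4% of them were higher as deposited and 36.7% after the arrays were centred on their medians. It was 91.4% with the 4 other arrays as 1 group, 47.1% in the unadjusted analysis of variance named by the methods, 50.3% without the dimmest 50% of genes and 54.3% with a trended prior. Among genes over 2-fold the share was 82.1% as deposited and 73.4% after centring. Without VE replicate 1 or VE replicate 2 the number of called genes was 860 or 865. When the 4 arrays of the lines carrying N-cadherin were treated as 1 group, so that the gap between those lines entered the error, 361 genes passed.

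The genes over 2-fold were then divided by how the lines carrying N-cadherin stood to each other. A gene was put in the shared class when VE minus N and VE minus VE+N passed in the same direction, each at adjusted p below 0.05, and the VE+N-labelled and N-labelled means lay within 0.5 log2 units. This class held 189 genes (0.948%), 181 of them higher (0.908% of genes tested) and 8 lower (0.0401%). Since the class was chosen on these differences, its direction and sizes are a description. VE minus both ran from 1.00 to 4.93 with a median of 1.26 among the 181, and 23 of them differed over 4-fold, against 0 of the 8. The VE+N-labelled line differed from the N-labelled line by a median size of 0.17 in the 189. It lay below it in 107 of the 181 and above it in 74. In 77 of the 181, the means of both lines carrying N-cadherin were under the median gene of their arrays, so that fold sizes there are approximate. A further 132 genes were graded, with both departures called in 1 direction but more than 0.5 between N and VE+N, and 99 were discordant, called over 2-fold in the mean without both departures passing in 1 direction. Treating the 4 arrays as 1 group left 169 of the 181 in the class. That fit changed only the test of VE minus both. The class already required N and VE+N to lie close, so the fit could remove few of its members. Median centring left 133 in the class.

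**Figure D2:**
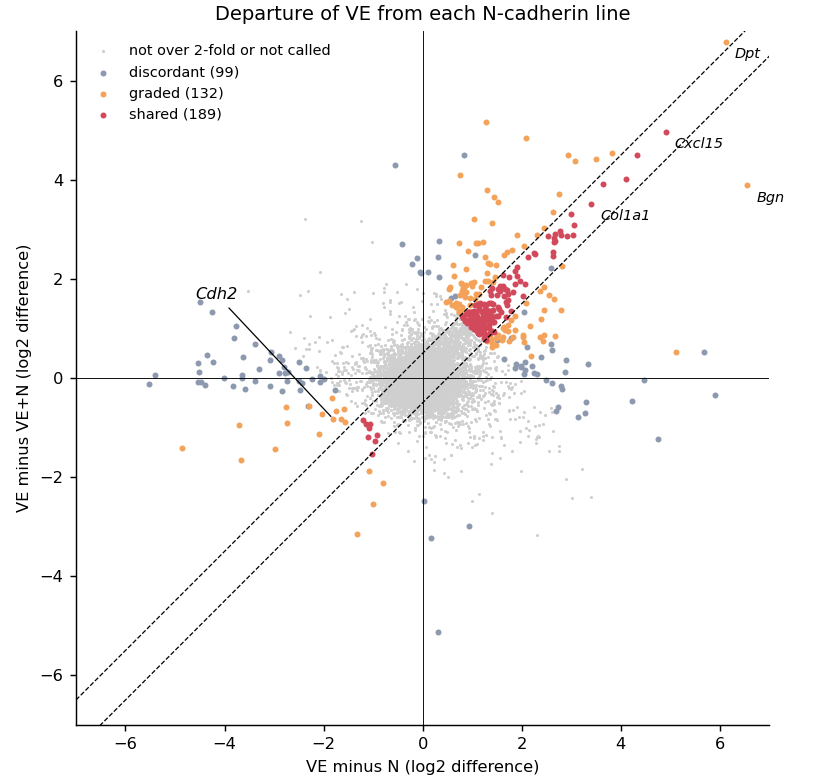
Difference of the VE-labelled line from the N-labelled line (horizontal axis, log2) against its difference from the VE+N-labelled line (vertical axis, log2), 1 point per gene; the dashed lines mark 0.5 log2 units between VE+N and N. Both axes share the VE-labelled arrays, so points near the diagonal arise partly from that. The shared class (189 genes) lies within the dashed band, mostly above 0, and Cdh2 lies outside it.

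The largest differences among the 181 genes included secreted and surface proteins, enzymes and a transcription cofactor. The chemokine-like gene Cxcl15 read 8.65 and 7.40 on the VE-labelled, 3.03 and 3.21 on the N-labelled and 3.21 and 2.92 on the VE+N-labelled arrays, and VE minus both was 4.93 ± 0.293 (limma, adjusted p = 5.03e-05). Both VE-labelled arrays stood far above the others, and the 4 others lay close together. The glypican gene Gpc4, a heparan sulfate proteoglycan of the cell surface that binds growth factors, read 7.54 and 7.61 on the VE-labelled, 4.09 and 3.80 on the N-labelled and 3.72 and 3.61 on the VE+N-labelled arrays, a difference of 3.77 ± 0.106 (adjusted p = 2.75e-06). The BMP antagonist gremlin 1 (Grem1) read 8.02 and 7.71 on the VE-labelled, 4.74 and 4.87 on the N-labelled and 4.70 and 4.84 on the VE+N-labelled arrays, higher by 3.08 ± 0.114 in the VE-labelled line, with the other two lines 0.03 apart. Vgll3, a cofactor of TEAD transcription factors, was higher by 4.06 ± 0.296, Ndrg2 by 3.15 ± 0.15, the guidance molecule gene Sema5a by 2.78 ± 0.136, the metallothionein gene Mt2 by 2.73 ± 0.144 and the enkephalin precursor Penk by 2.83 ± 0.272. Among the aldehyde dehydrogenase genes, Aldh1a7 was higher by 2.96 ± 0.236 and Aldh3a1 by 2.72 ± 0.344. Adjusted p-values of these 7 genes lay between 2.03e-05 and 0.0019.

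**Figure D3:**
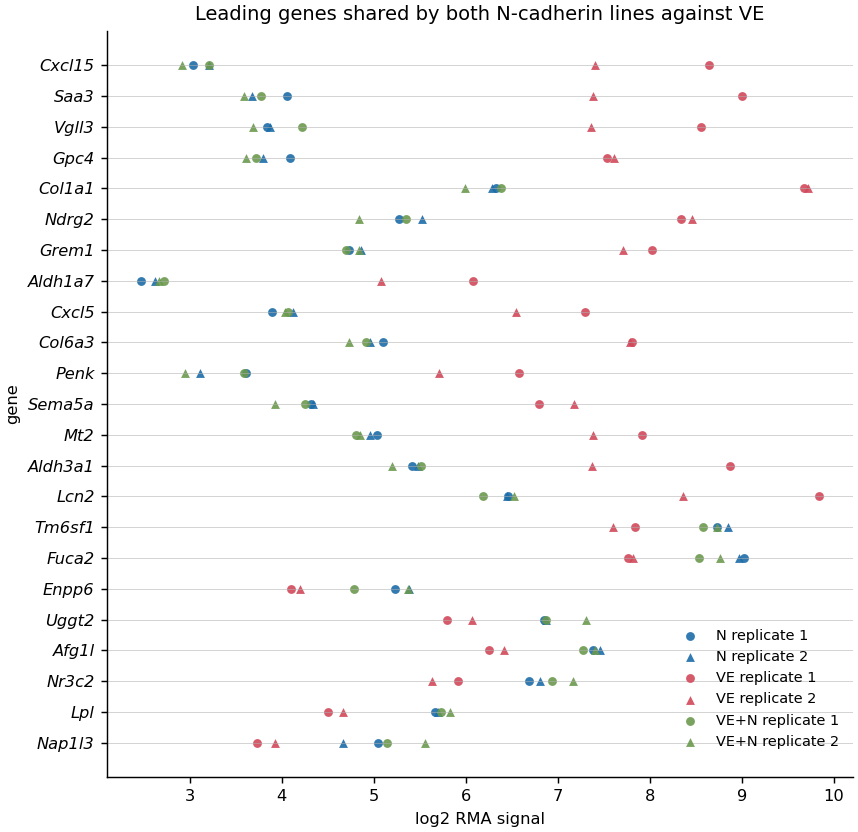
Log2 RMA signal (horizontal axis) on each of the 6 arrays for the 15 genes of the shared class with the largest rise in the VE-labelled line (upper rows) and the 8 that were lower (lower rows); circles are replicate 1 and triangles replicate 2. In each row the VE-labelled points stand apart from the other 4, which the rule of the class all but ensures. Over all genes they lay above the other 4 in 9.54% and below them in 12.1%. In 9 of the 15 upper rows VE replicate 1 lies over 0.5 above VE replicate 2.

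Of the 45 lists, that of mitosis gave the shared class most members. Of 39 measured genes of mitosis and the spindle, 39 rose and 0 fell in the VE-labelled line, where 5.86% of all genes rose. The median difference was 1.11 log2 units, against −0.03 over all genes tested, and 27 of the 39 were in the shared class, against 0.908% of all genes. By array, the median signal of the list was 7.94 and 7.98 on the VE-labelled, 6.92 and 6.93 on the N-labelled and 7.04 and 6.79 on the VE+N-labelled arrays. All 39 genes passed in VE minus N and in VE minus VE+N, which share the VE-labelled arrays, with medians of 1.10 and 1.11. Over all genes 8.46% and 5.84% were called higher in these comparisons. In VE+N minus N, 2 of the 39 rose and 1 fell, where 10.2% of all genes rose and 8.91% fell. The rise in 39 of 39 was unchanged by median centring, by repeated quantile normalization and without any single N-labelled or VE+N-labelled array. Leaving out VE replicate 1 gave 35, leaving out VE replicate 2 gave 37, and taking the 4 other arrays as 1 group gave 34. It was 22 when a rise over 1.5-fold was tested (treat) and 10 in the methods' analysis of variance after Benjamini-Hochberg adjustment.

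The proliferation marker Mki67 read 9.38 and 9.67 on the VE-labelled, 7.94 and 7.75 on the N-labelled and 7.998 and 7.97 on the VE+N-labelled arrays, so that the VE-labelled arrays were 1.61 ± 0.111 (SE) higher (limma, adjusted p = 9.68e-05). Topoisomerase 2a (Top2a), which untangles chromosomes before they separate, read 9.27 and 9.33 on the VE-labelled, 7.86 and 7.89 on the N-labelled and 7.95 and 7.90 on the VE+N-labelled arrays, a difference of 1.40 ± 0.0828. The lines carrying N-cadherin differed in Top2a by 0.05. Cyclin A2 (Ccna2) was higher by 1.47 ± 0.121 and Ect2, which drives cytokinesis, by 1.42 ± 0.103. Cdc20, an activator of the anaphase-promoting complex, had the smallest rise of the list, 0.70 ± 0.0955, and was named after its value was seen, as were the kinase genes Aurkb (1.31 ± 0.111) and Plk1 (1.17 ± 0.125) and the motor Kif11 (1.39 ± 0.0986).

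Replication genes rose with them by smaller amounts. Of 34 measured genes of DNA replication and S phase, 29 rose, 0 fell and 5 did not pass. Over all genes 5.86% rose and 3.68% fell. The median of the list was 0.81, and 5 of its genes were in the shared class. Those 5 were the cyclins Ccne1 (1.32 ± 0.149) and Ccne2 (1.18 ± 0.104), which act at the entry to S phase, DNA ligase 1 (Lig1, 1.12 ± 0.117), Cdc45 of the replicative helicase (1.004 ± 0.0906, named after its value was seen) and Uhrf1 (1.01 ± 0.189), which carries DNA methylation through replication. Uhrf1 did not pass when VE replicate 1 (1.14, adjusted p = 0.0769) or VE replicate 2 (0.88, adjusted p = 0.158) was left out. The count of 29 became 18 without VE replicate 1, 20 without VE replicate 2 and 12 when the 4 arrays were treated as 1 group. It was 3 by treat against 1.5-fold and 4 in the adjusted analysis of variance. Of 19 cyclins and inhibitors of G1, 7 rose and 0 fell, among them E2f8, a repressor that follows the cell cycle, at 1.26 ± 0.104 in the shared class. Cyclin D1 (Ccnd1) was higher by 0.85 ± 0.0947, and the inhibitor genes Cdkn2a and Cdkn2c by 1.04 ± 0.0999 and 0.74 ± 0.116. Cdkn2c did not pass once VE replicate 1 was left out (0.58, adjusted p = 0.0716).

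**Figure D4:**
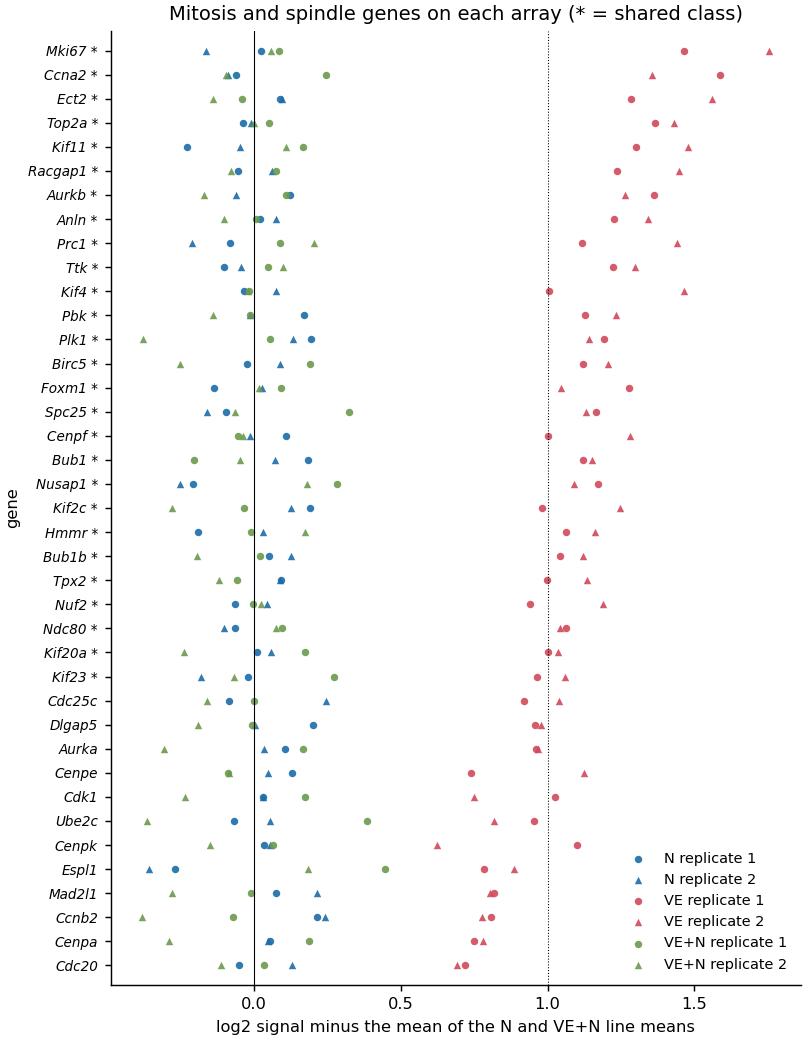
Log2 signal of each mitosis and spindle gene on each array, less the mean of the N-labelled and VE+N-labelled line means (horizontal axis; genes in rows, asterisks mark the shared class). The VE-labelled points lie to the right of the other 4 in all 39 rows, as they do in 9.54% of all genes. The dotted line marks a difference of 1 log2 unit.

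Promoters of the class were searched because its members move together. RefSeq promoters (250 bases before the start of the gene, 1 per gene, the first listed) were held for 146 of the 181 higher genes and for 15614 of all genes tested. The forkhead motif of FoxO factors, GTAAACA on either strand, was in 8 of the 146 (5.48%) and in 2.72% of the 15614. The E2F motifs TTTCGCG and TTTGGCG were in 7 (4.79%) against 2.6%, and the Rbpj motif GTGGGAA in 10 (6.85%) against 5.33%. The TCF/LEF motifs CTTTGAA and CTTTGAT were in 8 (5.48%) against 6.84%, the TEAD motif GGAATG in 15 (10.3%) against 11.3% and the E-box CAGGTG, which Snail and Zeb bind, in 21 (14.4%) against 16.6%. No test was made of these shares, and a match is a description of letters, not a site. Of 25 promoters of shared-class genes in the mitosis or replication lists, 3 held GTAAACA and 0 an E2F motif. Of the 121 promoters outside these lists, 5 held GTAAACA (4.13%) and 7 an E2F motif (5.79%). Among those 7 were genes of the cell cycle that the lists do not hold, such as Cdca8 and Kif15 of the spindle and Clspn of the replication checkpoint, named after their promoters were read. The promoters of Nuf2, Ect2 and Cdc45, which held GTAAACA on either strand, are printed 5′ to 3′ with that match in capitals. That of Cxcl15, the gene with the largest difference in the class, follows with its TCF/LEF match in capitals.
Nuf2 (GRCm38.p6 chr1:169531465-169531714, minus strand): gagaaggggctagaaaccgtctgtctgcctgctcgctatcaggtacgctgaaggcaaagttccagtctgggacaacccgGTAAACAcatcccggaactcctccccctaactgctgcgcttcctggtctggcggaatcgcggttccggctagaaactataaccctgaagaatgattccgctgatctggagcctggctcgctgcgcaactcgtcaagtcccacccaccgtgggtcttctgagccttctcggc
Ect2 (GRCm38.p6 chr3:27153879-27154128, minus strand): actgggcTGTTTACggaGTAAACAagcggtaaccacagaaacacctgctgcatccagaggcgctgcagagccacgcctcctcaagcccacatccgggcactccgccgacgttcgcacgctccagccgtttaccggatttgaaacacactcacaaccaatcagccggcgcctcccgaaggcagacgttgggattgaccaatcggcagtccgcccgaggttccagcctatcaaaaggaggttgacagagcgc
Cdc45 (GRCm38.p6 chr16:18811973-18812222, minus strand): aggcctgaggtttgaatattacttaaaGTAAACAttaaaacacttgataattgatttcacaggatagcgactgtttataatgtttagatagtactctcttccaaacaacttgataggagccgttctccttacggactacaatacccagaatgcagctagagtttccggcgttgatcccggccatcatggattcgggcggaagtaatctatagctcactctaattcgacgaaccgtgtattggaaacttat
Cxcl15 (GRCm38.p6 chr5:90794284-90794533, plus strand): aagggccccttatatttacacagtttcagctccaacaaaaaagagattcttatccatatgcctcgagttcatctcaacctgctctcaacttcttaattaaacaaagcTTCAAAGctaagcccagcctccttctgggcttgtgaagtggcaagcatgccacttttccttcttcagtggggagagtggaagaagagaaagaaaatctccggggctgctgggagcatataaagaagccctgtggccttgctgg
Ect2 held 2 matches, 1 on each strand, and the other 3 promoters 1 each. Nuf2, a kinetochore protein, was higher by 1.07 ± 0.1 in the VE-labelled line and was named for its promoter.

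Several collagen genes were higher in the VE-labelled line. Of 20 measured genes of fibrillar and associated collagens, 11 rose, 0 fell and 9 did not pass, where 5.86% of all genes rose, with a median of 0.80, and 3 were in the shared class. The type I collagen chain Col1a1 read 9.68 and 9.72 on the VE-labelled, 6.33 and 6.28 on the N-labelled and 6.39 and 5.99 on the VE+N-labelled arrays, and the type VI chain Col6a3 read 7.81 and 7.79 on the VE-labelled, 5.10 and 4.95 on the N-labelled and 4.92 and 4.73 on the VE+N-labelled arrays. The VE-labelled arrays exceeded both other lines by 3.46 ± 0.119 and 2.88 ± 0.0961 (limma, adjusted p = 5.36e-06 and 5.07e-06), while N and VE+N lay 0.12 and 0.20 apart. The enhancer of procollagen processing Pcolce was higher by 1.21 ± 0.0822 and Col15a1, the 1 class member of 26 basement membrane genes, by 1.33 ± 0.0879. Col3a1 had the same mean difference as Col1a1, 3.46 ± 0.192, but a different makeup: it read 10.29 and 10.53 on the VE-labelled, 8.28 and 8.39 on the N-labelled and 5.95 and 5.19 on the VE+N-labelled arrays, so that the lines carrying N-cadherin stood 2.77 apart and the gene fell outside the class. Among 15 small leucine-rich proteoglycans and dermatopontin, 6 rose and 1 fell, with lumican (Lum), which spaces collagen fibrils, in the shared class at 1.06 ± 0.0995. Its readings of 3.84 and 3.83 in the VE-labelled line were themselves low on these arrays.

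Markers of fibroblasts and mesenchyme moved with the collagens, and some are the same genes. Of 20 measured, 13 rose, 1 fell and 6 did not pass, where 5.86% of all genes rose and 3.68% fell. The median difference was 1.13. The median signal of the list was 6.62 and 6.50 on the VE-labelled, 5.49 and 5.40 on the N-labelled and 4.88 and 4.54 on the VE+N-labelled arrays. The receptor Pdgfra, a defining marker of these cells, read 8.06 and 8.18 on the VE-labelled, 5.61 and 5.58 on the N-labelled and 5.21 and 5.30 on the VE+N-labelled arrays and was in the shared class at 2.69 ± 0.0873 (adjusted p = 4.66e-06). Twist2, a transcription factor of mesenchyme, was in the class at 1.16 ± 0.141, with Col1a1 and Lum. Prrx2, at 1.53 ± 0.114, was the other class member, with Twist2, of 20 genes of endothelial-mesenchymal transition, of which 5 rose and 2 fell. Thy1 at 0.06 ± 0.105, Pi16 at 0.08 ± 0.109 and Tcf21 at 0.02 ± 0.107, also defining markers, did not pass. Fap, the 1 gene that fell, did so by 0.51, with VE minus N at −1.64 and VE minus VE+N at 0.62. These 4 were named after their values were seen. The part of such cells in the result was not tested. In bulk RNA, more cells of a type cannot be told apart from more RNA per cell.

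Several markers of the labelled cell type read high in all 3 lines. Emcn, Pecam1, Kdr and Tek, named as defining markers, read between 10.89 and 12.44 on the 6 arrays, well above the median gene. The median of the endothelial identity list was lower, between 9.41 and 9.82 by array. Cdh5, given above, was dimmer in every line and Aplnr, given below, in the N-labelled line. In VE+N minus N, 17 of the list rose and 7 fell, where 10.2% and 8.91% of all genes did. Of 42 endothelial identity genes 4 rose, 10 fell and 28 did not pass in VE minus both (median −0.21), and 0 were in the shared class. Over all genes 5.86% rose and 3.68% fell. The lowest value of the list, −1.94, was that of Nostrin, which was discordant. Clec14a, a surface lectin of endothelium, was lower by 0.91 ± 0.106 and Esam, a junctional adhesion molecule, by 0.38 ± 0.089. The Esam call was lost without any of 5 arrays, all but VE+N replicate 1, with values between −0.40 and −0.34 and adjusted p between 0.0556 and 0.21. The apelin receptor Aplnr, at 3.10 ± 0.156, differed mainly from the N-labelled line, where it read 4.80 and 4.31 against 10.31 and 10.16 in the VE-labelled and 9.87 and 9.54 in the VE+N-labelled line. Among markers of other cells, 0 of 16 pluripotent, 1 of 20 epithelial, 2 of 25 cardiac and skeletal muscle, 4 of 20 mural and 3 of 16 neural genes passed, where 9.55% of all genes did. The neural list held 1 class member, Tubb3, at 1.27 ± 0.145. Of 21 blood cell genes 1 rose and 2 fell. That 1 was Runx1, a transcription factor of blood-forming endothelium, in the shared class at 1.13 ± 0.089, while the pan-leukocyte gene Ptprc read between 2.53 and 2.96 on the 6 arrays.

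Receptors and ligands were scattered through the shared class. Beside the list counts below, 5.86% of all genes rose, 3.68% fell and 0.908% were in the higher part of the class. No list was tested against these shares. Among vascular growth factors, Vegfa read 8.28 and 8.07 on the VE-labelled, 6.97 and 6.91 on the N-labelled and 7.22 and 7.27 on the VE+N-labelled arrays, higher by 1.08 ± 0.0938 in the VE-labelled line, and Vegfd, a ligand of the lymphatic receptor, was higher by 1.56 ± 0.114. These were the only members of 31 VEGF pathway and tip cell genes in the class, although 6 rose and 7 fell. Notch2 was the only member of 30 arterial and Notch genes in it, at 1.44 ± 0.111, with readings of 8.33 and 8.40 on the VE-labelled, 6.95 and 7.03 on the N-labelled and 6.69 and 7.02 on the VE+N-labelled arrays. Of 51 axon guidance and Eph genes 13 rose, 7 fell and 3 were in the class: Sema5a, given above, the ephrin receptor Epha7 (2.28 ± 0.137) and Sema7a (1.09 ± 0.118). Ltbp1, which stores latent TGF-beta in the matrix, was higher by 1.005 ± 0.129, and with Grem1 made up the class members among 32 genes of TGF-beta and BMP response, of which 9 rose and 4 fell. Of 22 YAP/TAZ targets 7 rose, 2 fell and 1, Ankrd1, was in the class at 1.66 ± 0.294. Outside every list, and named after their values were seen, the epidermal growth factor receptor gene Egfr was higher by 2.07 ± 0.185, the leukaemia inhibitory factor receptor Lifr by 2.39 ± 0.0986, the BMP receptor Bmpr1a by 1.98 ± 0.126, the interleukin 13 receptor chain Il13ra1 by 2.54 ± 0.143 and the hyaluronan synthase Has2 by 2.01 ± 0.0921.

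FGF receptors and the feedback genes of their ERK pathway gave 6 rises and 0 falls among 26. Over all genes 5.86% rose and 3.68% fell. Of the 26, the VE-labelled line was called above VE+N in 12 and above N in 2 (median differences 0.43 and 0.05). Over all genes these shares were 5.84% and 8.46%. Both comparisons share the VE-labelled arrays, and 0 of the 26 were in the shared class. Etv5, a transcription factor induced by the pathway, was higher by 0.89 ± 0.0981 in the mean of both, but by 1.49 against the VE+N-labelled and 0.29 against the N-labelled line. Of 25 targets and feedback genes of Wnt and beta-catenin, 7 rose, 0 fell and again 0 were in the class. The antagonists Sfrp2 and Apcdd1 were higher by 1.91 ± 0.197 and 1.83 ± 0.187, with VE+N minus N at 1.08 and −0.999.

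Inflammatory members were high in the VE-labelled line with a wide gap between its 2 arrays. The acute phase gene Saa3 read 9.001 and 7.38 on the VE-labelled, 4.06 and 3.68 on the N-labelled and 3.77 and 3.59 on the VE+N-labelled arrays. Lipocalin 2 (Lcn2), which binds bacterial siderophores, read 9.84 and 8.36 on the VE-labelled, 6.46 and 6.44 on the N-labelled and 6.18 and 6.53 on the VE+N-labelled arrays, and the neutrophil chemokine Cxcl5 read 7.29 and 6.54 on the VE-labelled, 3.90 and 4.12 on the N-labelled and 4.07 and 4.04 on the VE+N-labelled arrays. In each of these, and in Cxcl15, VE replicate 1 was well above VE replicate 2, and both were above all 4 other arrays. The rule of the class all but ensures the latter, which held in all 181 higher genes. Over all genes it held in 9.54%. For Saa3, Lcn2 and Cxcl5, VE minus both was 4.41 ± 0.374, 2.69 ± 0.34 and 2.89 ± 0.188 (limma, adjusted p = 0.000251, 0.0019 and 7.84e-05). VE replicate 1 exceeded VE replicate 2 by over 0.5 in 18 of the 181 higher genes and fell short of it by as much in 9, whereas over all genes tested the counts were 214 and 181. Of 31 inflammatory chemokines and cytokines 10 rose and 1 fell, where 5.86% of all genes rose and 3.68% fell. Cxcl10 (1.26 ± 0.116) was the third member of that list in the class. Of 22 acute phase and complement genes 6 rose and 1 fell. Matrix proteases in the class were Mmp9 (1.25 ± 0.113) and Mmp19 (1.30 ± 0.11), 2 of 8 that rose among 29 extracellular proteases and inhibitors.

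Genes of glycolysis and the response to low oxygen gave 11 rises and 0 falls among 29, with 4 in the shared class. Over all genes 5.86% rose and 3.68% fell. The lactate exporter Slc16a3 read 7.52 and 7.08 on the VE-labelled, 5.48 and 5.32 on the N-labelled and 5.32 and 5.15 on the VE+N-labelled arrays, a difference of 1.98 ± 0.135 (limma, adjusted p = 9.57e-05). Hexokinase 2 (Hk2) was higher by 1.08 ± 0.122 and Ndrg1 by 1.04 ± 0.149, beside Vegfa. The amino acid transporter Slc7a5 was higher by 1.25 ± 0.0865, the glutathione transferase Gstm5 by 1.31 ± 0.133 and the sterol enzyme squalene epoxidase (Sqle) by 1.06 ± 0.11, each the only class member of its list. The list medians were 0.12 for the 27 stress genes, 0.07 for the 31 glutathione and oxidative genes and 0.21 for the 20 sterol genes. In the sterol list 7 rose and 1 fell, yet 12 were higher than in the VE+N-labelled line and 1 than in the N-labelled line, comparisons that share the VE-labelled arrays.

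Only 8 genes of the shared class were lower in the VE-labelled line, that is, higher in both lines carrying N-cadherin, and the differences were small. Lipoprotein lipase (Lpl), which frees fatty acids at the vessel wall, read 4.50 and 4.67 on the VE-labelled, 5.67 and 5.70 on the N-labelled and 5.73 and 5.83 on the VE+N-labelled arrays and differed by −1.15 ± 0.0908 (limma, adjusted p = 0.000179). The mineralocorticoid receptor Nr3c2 read 5.92 and 5.63 on the VE-labelled, 6.69 and 6.80 on the N-labelled and 6.94 and 7.17 on the VE+N-labelled arrays, a difference of −1.13 ± 0.117. Nap1l3, of the nucleosome assembly protein family, had the largest fall, −1.28 ± 0.153, with readings of 3.73 and 3.93 on the VE-labelled, 5.05 and 4.66 on the N-labelled and 5.14 and 5.56 on the VE+N-labelled arrays. The other 5 were the mitochondrial ATPase Afg1l (−1.05 ± 0.0944), the glucosyltransferase homologue Uggt2 (−1.04 ± 0.138), the phosphodiesterase Enpp6 (−1.04 ± 0.156), the fucosidase Fuca2 (−1.03 ± 0.0964) and Tm6sf1 (−1.001 ± 0.105). In each of the 8 the VE-labelled arrays lay below the 4 others, which the rule of the class all but ensures. They did so in 12.1% of all genes. The class of lower genes held 5 once VE replicate 2 was left out, and 4 once VE+N replicate 2 was. Without VE replicate 1 or VE replicate 2, Enpp6 lost its call (adjusted p = 0.0724 and 0.0534, at −0.99 and −1.09).

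Of the 75 genes over 2-fold with Cdh2's own direction, Cdh2 included, 48 were discordant, 19 graded and 8 shared. Of the 19 graded genes lower in the VE-labelled line, 15 had the N-labelled line farther from VE than the VE+N-labelled line, Cdh2 among them. The other 4 had the opposite order. The ectonucleotidase Entpd1, which breaks down extracellular ATP, was the largest of the 15: it read 5.16 and 5.07 on the VE-labelled, 9.95 and 10.002 on the N-labelled and 6.398 and 6.64 on the VE+N-labelled arrays. The carboxypeptidase Cpq (−2.65 ± 0.218), the matrix protein Adamtsl1 (−2.33 ± 0.122), the neurofilament gene Nefl (−2.21 ± 0.136) and the potassium channel Kcnq1 (−1.83 ± 0.0905) followed. In the 4 with the opposite order, the VE+N-labelled line was highest: neurotensin (Nts, −2.24 ± 0.0971), the glutathione transferase Gsta3 (−1.77 ± 0.167), Prkcz (−1.48 ± 0.121) and the water channel Aqp1 (−1.46 ± 0.136).

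Of 113 graded genes higher in the VE-labelled line, the VE+N-labelled line lay farther from VE in 73 and the N-labelled line in 40. Dermatopontin (Dpt) had the largest difference of all genes, 6.45 ± 0.108 (limma, adjusted p = 1.88e-07), with readings of 9.63 and 9.78 on the VE-labelled, 3.74 and 3.45 on the N-labelled and 2.94 and 2.90 on the VE+N-labelled arrays. It missed the shared class because the lines carrying N-cadherin were 0.67 apart, a small gap beside the difference itself. Neprilysin (Mme, 4.18 ± 0.141), stromelysin 1 (Mmp3, 3.96 ± 0.232), decorin (Dcn, 3.72 ± 0.204) and matrilin 2 (Matn2, 3.72 ± 0.102) had the same order. Biglycan (Bgn), at 5.22 ± 0.0969, had the reverse order and stood in 3 steps, reading 11.06 and 11.22 on the VE-labelled, 4.49 and 4.67 on the N-labelled and 7.29 and 7.21 on the VE+N-labelled arrays. At the limit of 0.5 log2 units, Ank3 (0.50), Nap1l3 (0.50) and Ccne2 (0.49) were just inside and Ifi207 (−0.51), the histone gene H2ac15 (0.52) and Vasn (−0.53) just outside, given as VE+N minus N.

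**Figure D5:**
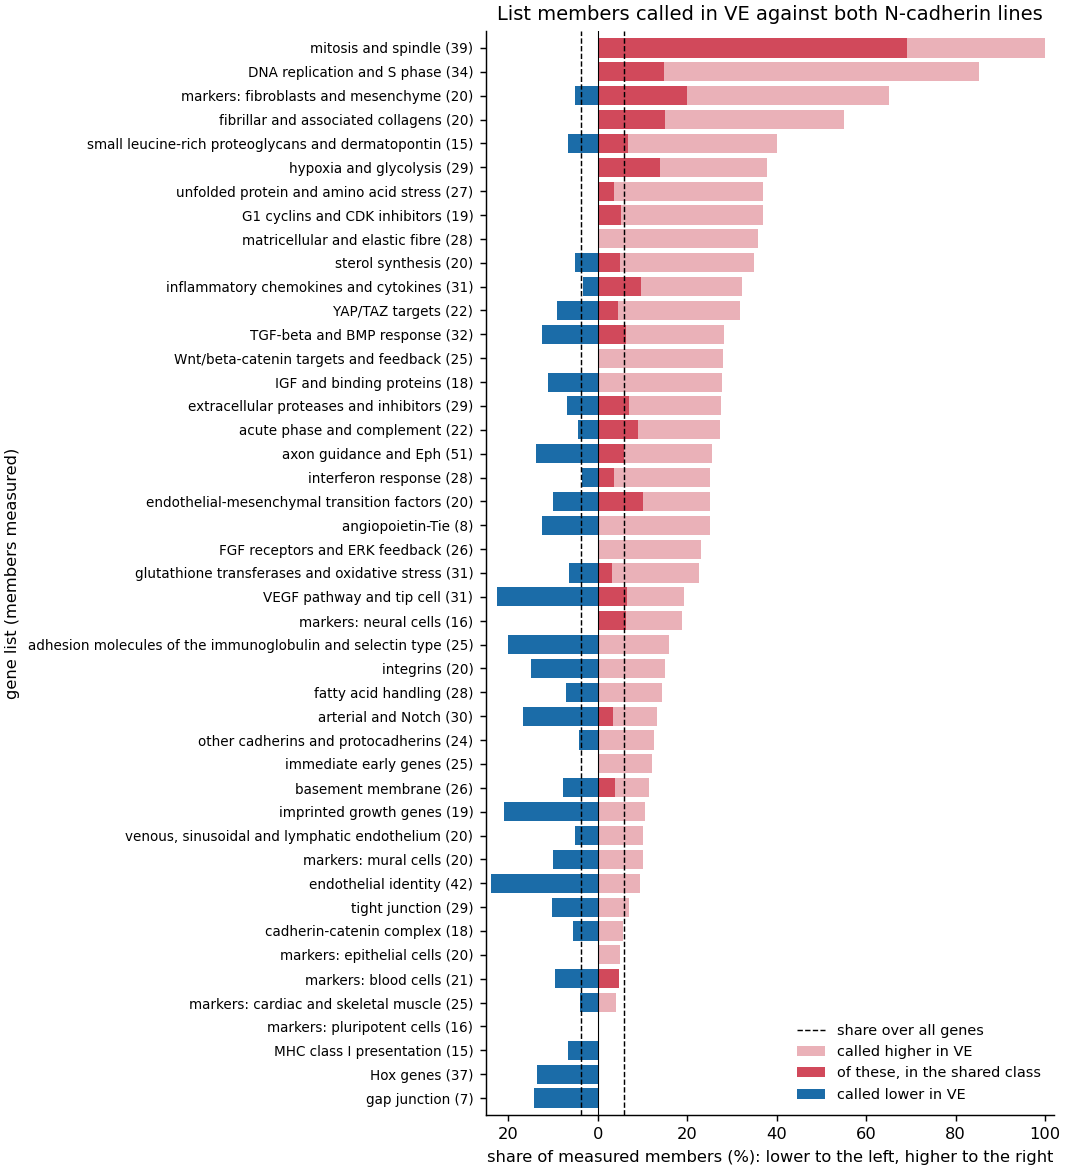
Share of the measured members of each gene list (rows, number measured in brackets) called higher (right) or lower (left) in VE minus both, in percent, with the part in the shared class in dark red; dashed lines mark 5.86% and 3.68%, the shares over all genes. Mitosis, replication, fibroblast marker and collagen lists reach farthest to the right among the 45 lists.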

How the data were processed

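RNA of 3 lines was measured on 6 arrays, 2 per line. The submitters' processing notes name RMA and Partek 6.3, and the deposited values lie in the range of log2 signals, which the notes do not state. RMA includes background correction and quantile normalization. There were 35556 probe sets, 21789 with 1 symbol, 12146 without and 1621 with several. Symbols were updated through RefSeq tables, and the brightest probe set of a gene was kept, giving 19936 genes with dim ones included.

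Line means were fitted with limma 3.58.1 in R 4.3.3 over all 6 arrays (3 residual and 4.89 prior degrees of freedom). Tests were two-sided, with Benjamini-Hochberg adjustment over all genes. Errors given with ± are SEs of log2 differences. Precision is limited by the number of arrays. The median gene lay between 5.47 and 5.59 on the 6 arrays.

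The 45 gene lists (1167 members, 1108 measured), the classes and the tests were chosen with earlier results of these data known. Genes named are Cdh2 and Cdh5, up to 15 largest of the shared class in each direction, up to 4 called members per list with class members first, 5 per graded class and 3 on each side of the limit. Predicted genes, pseudogenes and small RNAs were not named. Others are stated to be outside this rule. No set test was run. Promoter sequences are from RefSeq. The alternatives were a replicate block, the 4 arrays as 1 group, a trended robust prior, array weights, the methods' analysis of variance (per the series' design text), treat, median centring, repeated quantile normalization, filters on dim genes, other uses of probe sets, other class limits and each array left out.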

Additional observations from a re-analysis of the deposited data

Results flagged for a closer look

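Probe sets without a single gene symbol were outside the gene tests. Tested together with all 35556 probe sets, 192 of 13767 passed in VE minus both (1.39%), and 75 of them differed over 2-fold, 48 upwards and 27 downwards. By the rule of the shared class, 15 were higher and 5 lower.

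In 386 genes the VE-labelled line lay between the lines carrying N-cadherin, with VE minus N and VE minus VE+N passing in opposite directions (limma, VE+N minus N as the test of the difference). The tight junction gene Cldn5 read 9.26 and 9.26 on the VE-labelled, 6.14 and 6.34 on the N-labelled and 11.55 and 11.81 on the VE+N-labelled arrays, and the potassium channel gene Kcnj2 read 6.92 and 6.75 on the VE-labelled, 9.20 and 9.24 on the N-labelled and 3.48 and 3.77 on the VE+N-labelled arrays. VE+N minus N was 5.44 ± 0.125 for Cldn5 and −5.59 ± 0.125 for Kcnj2 (adjusted p = 2.09e-07 and 1.99e-07). VE minus both was 0.30 and 0.42, and neither passed. Both were named after their values were seen.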

How the results depend on the processing

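Of 1903 genes called, 345 and 75 over 2-fold (higher and lower) and 181 and 8 in the shared class, these counts moved by over 1.5 times. With the 4 arrays as 1 group 361 were called, 204 and 7 over 2-fold. The methods' analysis of variance gave 3827 calls unadjusted and 347 after Benjamini-Hochberg, with 119 and 35 over 2-fold and 42 and 1 shared. Treat against 1.5-fold gave 328 calls and 80 and 1 shared. Testing all probe sets gave 1145. Without the dimmest 50% of genes, 44 were lower over 2-fold and 120 and 5 were shared. With single arrays left out, where the lone array of a line was assumed to vary like the others, calls ran from 860 to 1946, genes over 2-fold from 335 to 357 higher and 72 to 83 lower, and the class from 159 to 184 higher and 4 to 8 lower. The lower class was 5 with N and VE+N within 0.25, 14 within 1 and 5 with their gap at most 0.25 of VE minus both, and without a fold limit the class was 489 and 126. Median centring moved the median of all genes from −0.03 to −0.13. Of 3388 values of 181 named genes, 2946 kept direction and call, 442 kept direction only and 0 reversed. Of the 442, 122 came from the adjusted analysis of variance, 108 from the 4 arrays as 1 group, Cdh2 among them (adjusted p = 0.165), and 77 from treat. The causes were not tested. Replicate numbers shared across lines did not pair the arrays: deviations of same-numbered arrays correlated at −0.005 (N and VE), 0.1235 (N and VE+N) and 0.0689 (VE and VE+N). A replicate block gave 1885 calls and 179 and 8 shared. Signal over background could not be read, so sizes of dim genes are approximate.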

Other observations

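Several lists without a member in the shared class held called genes in VE minus both, where 5.86% of all genes rose and 3.68% fell, and no list here was tested against that share. Of 20 integrin subunits 3 rose and 3 fell: the collagen-binding subunit Itga2 was lower by 1.55 ± 0.0822 (SE) and Itgb8, which activates latent TGF-beta, higher by 0.996 ± 0.114. Itgb8 had N and VE+N 0.01 apart, and lay just under the 2-fold limit of the class. Of 28 matricellular and elastic fibre genes 10 rose and 0 fell, with periostin (Postn) at 2.55 ± 0.117 and thrombospondin 1 (Thbs1) at 1.73 ± 0.161, and VE+N minus N at −2.50 and −1.996. Among 25 adhesion molecules of the immunoglobulin and selectin type 4 rose and 5 fell, with Vcam1, which binds leukocytes, at 2.35 ± 0.137 and Ncam1 at 1.55 ± 0.0899.

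Hox genes, which carry positional identity, gave 0 rises and 5 falls among 37, and imprinted growth genes 2 and 4 among 19. The imprinted gene Mest was lower by 2.26 ± 0.0889 and Hoxd10 by 0.97 ± 0.124, both largely through the N-labelled line, since VE+N minus N was −4.25 and −2.20. Of 7 gap junction genes 0 rose and 1, Gja1, fell, at −2.83 ± 0.129 with VE+N minus N at −5.40. Tight junction genes gave 2 rises and 3 falls among 29, and the rises, 6.90%, were near the share over all genes. The interferon response list, whose 1 class member is Cxcl10, gave 7 rises and 1 fall among 28.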
